A study of Mus musculus with 10 samples.

Results

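The UDP-glucuronosyltransferases (Ugt) and cytosolic sulfotransferases (Sult) of the liver are described here, taken as every gene whose symbol begins with Ugt1, Ugt2 or Ugt3 followed by a or b and a digit, or with Sult and a digit. The rule found 35 of the 31218 genes in the table: 9 Ugt1, 8 Ugt2, 2 Ugt3 and 16 Sult genes. Ugt enzymes sit in the endoplasmic reticulum and attach glucuronic acid from UDP-glucuronate to bilirubin, steroids, bile acids and drugs. Sult enzymes work in the cytosol and attach sulfate from the donor PAPS to phenols, steroids, bile acids and amines. Both make their substrates more soluble, so that transporters can move them into bile or blood, and the liver is a main site of both.

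The livers came from 5 hepatocyte-specific Me1 knockout mice (HKO, genotype given as Me1 Alb/Alb) and 5 floxed littermates (Flox, genotype given as Me1 flox/flox, called wild type in the labels). All 10 mice had eaten a high-fat diet for 16 weeks, and the livers were kept at minus 80 degrees. Me1 is the cytosolic malic enzyme, which makes NADPH. The labels give neither age, sex nor batch, and what drives the deletion is not stated beyond the genotype as written, so whether every hepatocyte lost Me1 is not known from them.

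Each liver held 52790000 to 60765120 counts, and Me1 itself lay at 4.90 to 7.00 FPKM in HKO livers, against 30.2 to 46.7 FPKM in Flox livers. Of 8 hepatocyte markers 2 were lower in HKO (Tdo2 and Serpina1a), 6 did not pass and none was higher. Their summed level was 64644 to 80356 CPM (counts scaled to library size) in HKO and 85768 to 103184 CPM in Flox. Most of that sum was Alb, whose groups did not overlap in CPM (47285 to 60799 in HKO and 62991 to 78284 in Flox). In FPKM they did (20250 to 24706 in HKO and 21504.5 to 26418.6 in Flox). Mean FPKM of Apob, Ttr and Hpx, which did not pass, was higher in HKO. By edgeR, Apob and Ttr had log2 fold changes below 0 (-0.03 and -0.12) and Hpx 0.15. Livers HKO 4 and HKO 5 stood apart: 8 epidermal markers summed to 268 and 291 CPM there and to at most 6.02 CPM elsewhere, and 8 muscle markers to 242 and 266 CPM there and to at most 6 CPM elsewhere. Both also held Xist at 1.30 and 1.36 FPKM, against at most 0.149 FPKM in the other 8 livers. Of the marker lists for other liver cells, 2 of 8 macrophage, 3 of 7 stellate and fibroblast, 1 of 6 endothelial and 2 of 5 tested cholangiocyte genes were higher in HKO and none was lower. Over all genes tested 4.86% were higher. Summed CPM overlapped between the groups for macrophage genes (401 to 509 in HKO and 256 to 545 in Flox). Stellate and endothelial sums overlapped too, and cholangiocyte sums did not (77.6 to 122 in HKO and 48.1 to 71.0 in Flox). In whole liver, a difference in hepatocyte number, in RNA per hepatocyte or in single genes cannot be told apart. The labels do not say more about the mice, so p-values measure the spread between these 10 livers.

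Of the 35 genes, 28 had enough counts to be tested, and 15 passed: 8 were higher and 7 lower in HKO livers. Ugt2 genes were mostly higher (5 of 8, with 1 lower), while more of the 10 tested Sult genes were lower (4) than higher (1). Calls in the Ugt1 locus went both ways (2 up, 1 down), and 1 Ugt3 gene was called lower. Across all 18065 genes tested, 11.3% passed (4.86% higher and 6.4% lower), while 53.6% of the tested Ugt and Sult genes did. Their median log2 fold change, HKO minus Flox, was 0.32, against 0.0163 over all genes tested. In 5 members every HKO liver exceeded every Flox liver and in 7 every HKO liver was under every Flox liver; over all genes tested the shares were 4.41% above and 6.48% below. The test was edgeR's quasi-likelihood test with p-values adjusted over all genes, and a gene passed at an adjusted p under 0.05.

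The scale matters for the small differences. Values per liver are given as CPM scaled with TMM factors, which set the bulk of genes equal between libraries and ran from 0.998 to 1.16 in HKO and from 0.896 to 0.965 in Flox. The authors' FPKM carries no such factor, and on it the median of all genes was higher by 0.157 (log2) in HKO. A limma test on log2(FPKM + 0.5) called 13 members higher and 5 lower, where edgeR called 8 and 7. FPKM, which is scaled by gene length, is used below to compare levels between genes, for sums and shares within a family, and as a second scale beside CPM.

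**Figure D1:**
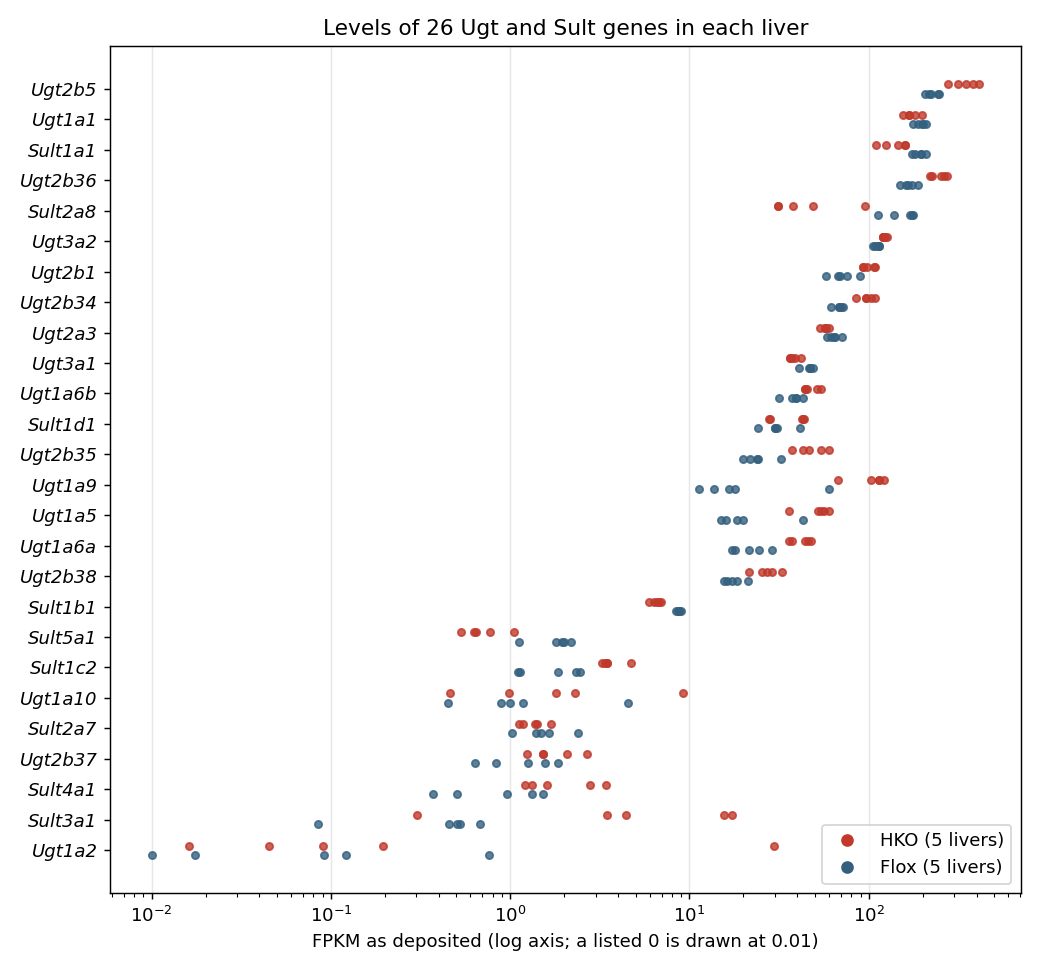
FPKM as deposited, on a log axis, of the 26 Ugt and Sult genes with a mean of at least 1 FPKM in either group, ordered by their Flox mean; each point is a liver, HKO drawn above Flox. Ugt2b5 was highest in both groups (mean 346 FPKM in HKO and 227 FPKM in Flox), and Sult2a8 and Ugt1a9 show the widest gaps among the genes above 10 FPKM.

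Levels spanned several orders of magnitude. Ugt2b5 was the most abundant in both groups, at 346 ± 53.2 FPKM in HKO and 227 ± 17.2 FPKM in Flox (mean ± SD, n = 5 each). In HKO livers Ugt2b36 (246 ± 22.5 FPKM), Ugt1a1 (174 ± 16.9 FPKM), Sult1a1 (139 ± 21.7 FPKM) and Ugt3a2 (122 ± 3.12 FPKM) followed. In Flox livers Ugt1a1 (194 ± 12.7 FPKM), Sult1a1 (191 ± 13.8 FPKM), Ugt2b36 (167 ± 14.6 FPKM) and Sult2a8 (154 ± 28.0 FPKM) followed. Ugt1a1 and Sult1a1 in Flox, and Ugt1a9, Ugt2b1 and Ugt2b34 in HKO (98.0 to 104 FPKM), were neighbours that did not differ beyond their spread. Ugt1a9 ranked 6 in HKO and 14 in Flox, and Sult2a8 ranked 11 in HKO and 5 in Flox. In both groups 17 genes lay at 10 FPKM or more. The other end of the order held 9 genes under 1 FPKM in both groups: Sult1e1, Sult2a1, Sult2a2, Sult2a3, Sult2b1, Sult3a2, Sult6b1, Ugt1a7c and Ugt1a8.

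**Figure D2:**
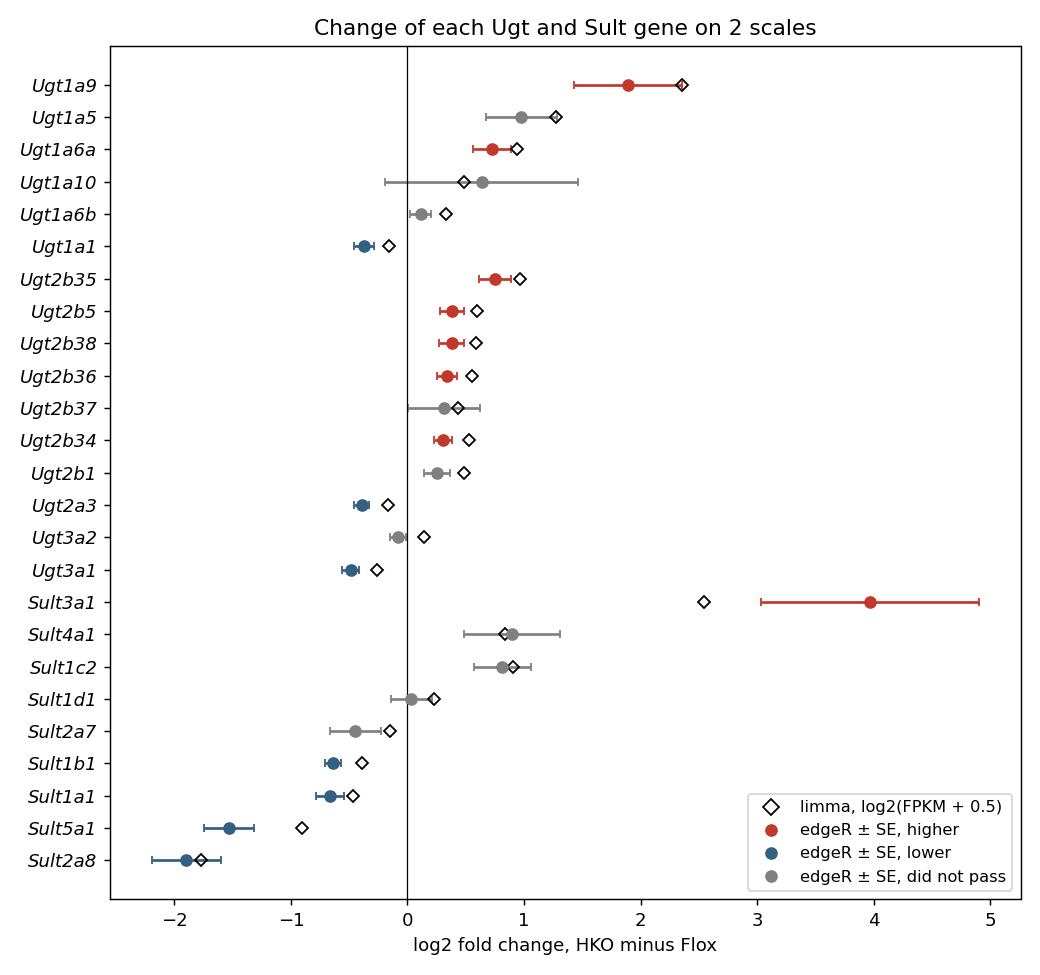
Log2 fold change (HKO minus Flox) of 25 of the 26 genes at or above 1 FPKM, by family, with edgeR estimates as filled points (bars, SE) and limma estimates on log2(FPKM + 0.5) as open diamonds; Ugt1a2, high in a single liver, is left out. The diamonds lie to the right of the points for most genes, and for Ugt3a2 they fall on opposite sides of 0 (-0.08 by edgeR and 0.14 by limma).

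The Ugt1 genes form a single locus on chromosome 1. Each of the 9 has a start of its own, and all are spliced to the same downstream exons: 3 exons with identical coordinates occur in all 9 genes, the first at chr1:88215044-88215175. The 50 bases across this junction are shown because they show where the 9 genes become the same to a read. The first 30 bases, in lower case, belong to the gene and the last 20, in capitals, are the start of the shared exon (GRCm38, plus strand).
Ugt1a9 junction: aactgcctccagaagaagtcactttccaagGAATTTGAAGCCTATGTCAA
Ugt1a6a junction: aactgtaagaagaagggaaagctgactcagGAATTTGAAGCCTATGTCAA
Ugt1a6b junction: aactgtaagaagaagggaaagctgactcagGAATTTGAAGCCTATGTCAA
Ugt1a5 junction: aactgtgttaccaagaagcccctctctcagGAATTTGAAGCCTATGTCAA
Ugt1a2 junction: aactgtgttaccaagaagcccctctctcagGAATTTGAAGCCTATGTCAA
Ugt1a1 junction: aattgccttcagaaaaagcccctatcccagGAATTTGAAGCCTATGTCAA
The junctions of Ugt1a6a and Ugt1a6b are the same over all 50 bases, and so are those of Ugt1a5 and Ugt1a2. Of all stretches of 150 bases in the transcripts of these genes, matching the read length, 49.1% (Ugt1a6a) to 65.4% (Ugt1a6b) also occur in another gene. The sources used here do not say how the authors divided such reads, so the values of single Ugt1 genes are uncertain. A sum of counts over the locus does not depend on how reads are divided within it.

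Summed over the 9 genes, Ugt1 stood at 429 ± 43.4 FPKM in HKO and 303 ± 24.8 FPKM in Flox (mean ± SD, n = 5 each), with every HKO liver above every Flox liver. In CPM the sums were 1218, 1233, 1190, 870 and 1017 in HKO livers, against 1046, 853, 868, 856 and 826 in Flox livers. On this scale HKO 4 and HKO 5 lay below Flox 1, so the groups overlapped.

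Ugt1a9, which in humans conjugates phenols such as propofol, had the largest rise among the called genes of the locus. It had 303, 272, 238, 146 and 247 CPM in HKO livers, against 166, 42.9, 46.7, 31.0 and 37.5 CPM in Flox livers. Apart from Flox 1, every Flox liver lay far below every HKO liver, and only HKO 4 lay below Flox 1. The log2 fold change was 1.89 (SE 0.46, edgeR adjusted p = 0.0277). The call held without Flox 1 (2.61, adjusted p = 3.84e-04) and without HKO 4 (2.04, adjusted p = 0.0303), and was lost without any single other liver (adjusted p = 0.0527 without HKO 5 to 0.0818 without Flox 2). Without both HKO 4 and HKO 5 it was 2.07 (adjusted p = 0.0727), and with no filter on low counts it did not pass (0.0861).

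Ugt1a6a, a phenol-conjugating enzyme, was also higher. It had 224, 208, 216, 153 and 161 CPM in HKO livers, against 158, 126, 109, 96.1 and 92.6 CPM in Flox livers. HKO 4 lay below Flox 1 and the other HKO livers above every Flox liver. Its log2 fold change was 0.73 (SE 0.16, edgeR adjusted p = 0.0156), and it stayed past the threshold without each liver in turn and without HKO 4 and HKO 5 (0.90, adjusted p = 0.0137). Ugt1a6b, its neighbour with the same junction, had 120 ± 13.3 CPM in HKO and 111 ± 10.5 CPM in Flox and did not pass (0.11, adjusted p = 0.452), but did by limma on log2(FPKM + 0.5) (0.33, adjusted p = 0.0228).

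Ugt1a5 had 141, 124, 138, 119 and 78.4 CPM in HKO livers, against 119, 47.8, 39.2, 44.2 and 55.1 CPM in Flox livers. Flox 1 lay within the HKO range and the other Flox livers below it. Its log2 fold change of 0.98 (SE 0.31) did not pass (edgeR adjusted p = 0.0677) but did without Flox 1 (1.37, adjusted p = 0.00134). With all livers it passed by DESeq2 (0.98, adjusted p = 0.00512), by limma-voom with quantile normalization (1.18, 0.0153) and by limma on log2(FPKM + 0.5) (1.27, 0.00673).

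Ugt1a1, the enzyme that conjugates bilirubin, was the only Ugt1 gene called lower. It had 422, 481, 391.6, 342 and 403 CPM in HKO livers, against 493, 526, 548, 551 and 520 CPM in Flox livers, with no overlap. On the log2 scale it fell by 0.37 (SE 0.09, edgeR adjusted p = 0.019). The change was -0.29 without HKO 4 and HKO 5 (adjusted p = 0.0748) and -0.16 by limma on log2(FPKM + 0.5) (adjusted p = 0.148), and limma-voom with quantile normalization gave -0.11 (0.343). With DESeq2's size factors in edgeR it was -0.37 and passed (adjusted p = 0.0188).

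The make-up of the locus also differed when taken as shares within each liver, on which scaling between libraries has no bearing, though the division of shared reads has. Ugt1a1 supplied 40.7 ± 3.25% of the summed Ugt1 FPKM in HKO and 64.4 ± 7.47% in Flox (SD, n = 5 each). The HKO livers held 36.2 to 43.2% and the Flox livers 51.1 to 68.8%, without overlap. Ugt1a9 supplied 24.1 ± 3.66% in HKO and 7.55 ± 5.61% in Flox. HKO livers held 18.7 to 27.9%, Flox 1 held 17.5% and the other Flox livers 3.93 to 5.87%.

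**Figure D3:**
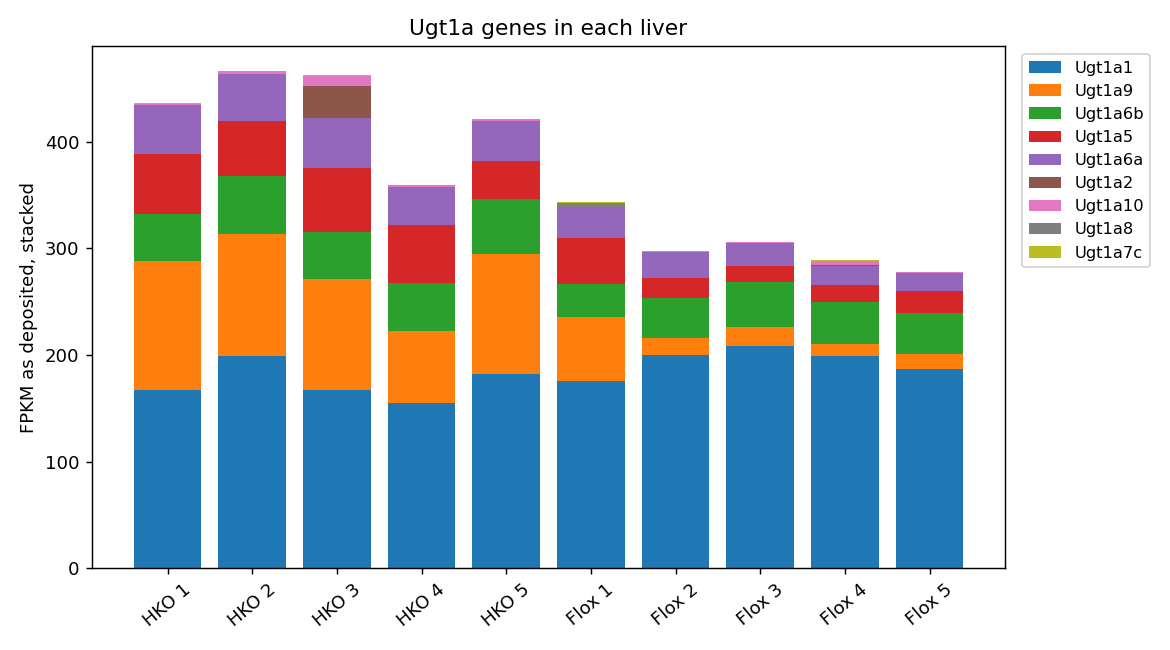
FPKM of the 9 Ugt1a genes stacked for each liver, HKO livers on the left. The Ugt1a9 band is wide in all HKO livers and in Flox 1 (17.5% of that liver's sum), and HKO 3 alone has a band of Ugt1a2.

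Other Ugt1 genes were high in single livers. Ugt1a2 had 68.7 CPM in HKO 3 and at most 0.431 CPM in the other HKO livers, against 0 to 2.12 CPM in Flox livers. Ugt1a10 had 21.8 CPM in HKO 3 and 1.19 to 5.66 CPM in the other HKO livers, against 12.9 CPM in Flox 4 and 1.30 to 3.16 CPM in the other Flox livers. Ugt1a8 was at or near 0 everywhere but in Flox 1 (10.2 CPM) and was not tested, and Ugt1a7c lay at 0.385 to 6.07 CPM in HKO and 0.431 to 2.45 CPM in Flox. Because Ugt1a2 shares 62.0% of its 150-base stretches with other genes, whether the reads of HKO 3 came from Ugt1a2 or a neighbour was not tested.

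Flox 1 stood out among the Flox livers beyond the Ugt1 locus. Srxn1, a target of the oxidative stress factor NRF2, was at 189 CPM there and at 48.9 to 65.1 CPM in the other Flox livers, against 92.2 to 120 CPM in HKO. Gclc, which makes the first step of glutathione synthesis and is another NRF2 target, was at 451 CPM there and at 229 to 270 CPM in the other Flox livers, against 309 to 506 CPM in HKO. Cidea, a lipid droplet protein, was at 52.0 CPM there and at 4.30 to 6.81 CPM in the other Flox livers, against 27.1 to 45.0 CPM in HKO. Other genes were also highest among the Flox livers in Flox 1: Tiparp (30.7 CPM, others 6.54 to 9.87), Nr1i2 (146, others 67.6 to 84.5) and Cyp3a11 (980, others 302 to 599). HKO livers had 8.37 to 39.4, 53.4 to 108 and 374 to 1000 CPM of these. The NRF2 target Nqo1 was at 8.08 CPM in Flox 1, below every HKO liver (9.99 to 23.7 CPM). What sets Flox 1 apart was not tested.

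Promoters of the 3 called Ugt1 genes are shown because these genes have separate start sites and moved in different directions. Each runs from 250 bases before to 50 after the annotated start (RefSeq, GRCm38.p6, plus strand), at chr1:88070529-88070828 for Ugt1a9, chr1:88134559-88134858 for Ugt1a6a and chr1:88211709-88212008 for Ugt1a1. Capitals mark matches to 5 searched motifs on either strand: AGGTCA (the hexamer bound by nuclear receptors), AGTTCA (its variant for the xenobiotic receptors PXR and CAR), TTCNNNGAA (STAT5), GCGTG (core of the xenobiotic response element) and TGACNNNGC (core of the antioxidant response element).
Ugt1a9 promoter: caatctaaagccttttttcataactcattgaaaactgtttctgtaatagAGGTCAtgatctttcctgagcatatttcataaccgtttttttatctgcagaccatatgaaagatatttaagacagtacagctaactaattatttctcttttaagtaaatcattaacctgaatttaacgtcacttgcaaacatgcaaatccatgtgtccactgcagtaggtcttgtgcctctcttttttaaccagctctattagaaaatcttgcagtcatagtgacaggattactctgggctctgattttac
Ugt1a6a promoter: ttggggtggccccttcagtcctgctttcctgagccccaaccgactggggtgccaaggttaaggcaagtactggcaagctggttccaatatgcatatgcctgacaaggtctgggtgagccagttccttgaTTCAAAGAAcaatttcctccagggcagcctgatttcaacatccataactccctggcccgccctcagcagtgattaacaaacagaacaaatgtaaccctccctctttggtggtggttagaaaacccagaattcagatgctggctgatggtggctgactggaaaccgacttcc
Ugt1a1 promoter: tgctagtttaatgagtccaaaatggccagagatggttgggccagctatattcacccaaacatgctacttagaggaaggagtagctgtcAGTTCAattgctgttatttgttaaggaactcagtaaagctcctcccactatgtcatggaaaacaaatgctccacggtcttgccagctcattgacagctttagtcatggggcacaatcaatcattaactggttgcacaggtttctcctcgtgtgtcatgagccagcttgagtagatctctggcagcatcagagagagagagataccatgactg
Ugt1a9 held AGGTCA starting 201 bases before the start, Ugt1a6a TTCNNNGAA at 121 bases before it and Ugt1a1 AGTTCA at 162 bases before it. Of 35 members, 29 had a promoter in the RefSeq table, with 32 promoters between them. AGGTCA was in 31.25% of these 32 promoters and in 16.26% of all 32851 promoters, AGTTCA in 21.88% and 13.99%, TTCNNNGAA in 6.25% and 8.3%, and GCGTG in 18.75% and 32.39%. TGACNNNGC was in 0 of the 32, against 12.39% of all promoters. Ugt2b5, Ugt2b36, Ugt2b37 and Ugt2b38 hold AGGTCA within the same run of bases, so their matches are not independent and the share of AGGTCA counts related promoters. A match is a stretch of letters and not evidence of binding.

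The Ugt2 genes lie side by side on chromosome 5, from Ugt2b34 to Ugt2b38 (86889767 to 87424203), and conjugate steroids, bile acids and many drugs. They were the most abundant group, and 5 of 8 were higher in HKO: Ugt2b35, Ugt2b5, Ugt2b36, Ugt2b34 and Ugt2b38. Ugt2a3 was lower, and Ugt2b1 and Ugt2b37 did not pass. The group summed to 2118, 2489, 2183, 2120 and 2458 CPM in HKO livers, against 1938, 1669, 1732, 1869 and 1973 CPM in Flox livers. Each HKO liver exceeded each Flox liver, and the ratio of means was 1.24 in CPM and 1.44 in FPKM.

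Ugt2b35 had the largest rise of the group. It had 143, 169, 152, 181 and 200 CPM in HKO livers, against 137, 86.6, 95.1, 101 and 83.5 CPM in Flox livers. The groups did not overlap, although HKO 1 and Flox 1 lay close. Its log2 fold change was 0.75 (SE 0.14, edgeR adjusted p = 0.00664), it passed without each liver in turn, and it was 0.62 without HKO 4 and HKO 5 (adjusted p = 0.0409).

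The other 4 risers were more abundant or more alike and rose by less. Ugt2b5 had 585, 766, 614, 643 and 764 CPM in HKO livers, against 521, 474, 455, 567 and 568 CPM in Flox livers. Ugt2b36 had 515, 586, 546, 462 and 558 CPM in HKO livers, against 457, 362, 456, 413 and 425 CPM in Flox livers. Neither gene's groups overlapped, though the lowest HKO liver lay close to the highest Flox liver. Ugt2b34 had 418, 485, 436, 414 and 465 CPM in HKO livers, against 390, 314, 349, 374 and 368 CPM in Flox livers, again without overlap. Ugt2b38 had 46.1, 58.9, 50.3, 50.6 and 61.8 CPM in HKO livers, against 38.7, 38.6, 35.1, 43.3 and 50.0 CPM in Flox livers, and here HKO 1 lay below Flox 5.

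Log2 fold changes were 0.38 for Ugt2b5, 0.34 for Ugt2b36, 0.30 for Ugt2b34 and 0.38 for Ugt2b38 (SE 0.10, 0.09, 0.08 and 0.11; edgeR adjusted p = 0.0311, 0.0284, 0.0251 and 0.0418). These 4 calls were near the threshold. Ugt2b5 lost its call without HKO 2, HKO 5, Flox 2 or Flox 3 (adjusted p = 0.0655 to 0.0778). Ugt2b36 lost it without HKO 2, HKO 3, HKO 5, Flox 2, Flox 4 or Flox 5 (0.0587 to 0.0677), and Ugt2b34 without HKO 2, HKO 5, Flox 2, Flox 3 or Flox 5 (0.051 to 0.0576). Ugt2b38 kept it only without HKO 1 (0.0316) or Flox 5 (0.0214), and otherwise had 0.054 to 0.0979. Without HKO 4 and HKO 5, Ugt2b36 passed (adjusted p = 0.0348), and Ugt2b34, Ugt2b5 and Ugt2b38 did not (0.0591, 0.106 and 0.151). With trends of gene length and GC content removed Ugt2b34 did not pass (0.101). By limma on log2(FPKM + 0.5) all 4 passed, with log2 fold changes of 0.52 to 0.60.

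Ugt2a3, which in humans conjugates bile acids, went the other way. It had 136, 122.9, 128, 119 and 126 CPM in HKO livers, against 166, 160, 163, 154 and 187 CPM in Flox livers, with no overlap. The log2 fold change was -0.39 (SE 0.07, edgeR adjusted p = 0.00415), and it passed without each liver and without HKO 4 and HKO 5. By limma on log2(FPKM + 0.5) it was -0.17 and did not pass (adjusted p = 0.0572). As a share of the summed Ugt2 FPKM, Ugt2a3 stood at 5.44 to 7.16% in HKO livers and 9.09 to 10.5% in Flox livers, a comparison within each liver.

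Ugt2b1 had 248 to 298 CPM in HKO and 176 to 287 CPM in Flox and did not pass (log2 fold change 0.25, edgeR adjusted p = 0.17), but did without Flox 5 (0.35, adjusted p = 0.0474), by limma on log2(FPKM + 0.5) (0.49, adjusted p = 0.00875) and by limma-voom with quantile normalization (0.51, adjusted p = 0.0129). Ugt2b37 was low, at 2.69 to 5.34 CPM in HKO and 1.51 to 4.46 CPM in Flox, with a log2 fold change of 0.31 (adjusted p = 0.557). Between Ugt2b5 and Ugt2b38, 19.5% and 19.2% of their 150-base stretches are shared, so their 2 values are not fully separate. No other Ugt2 gene shared a stretch of that length with another gene.

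**Figure D4:**
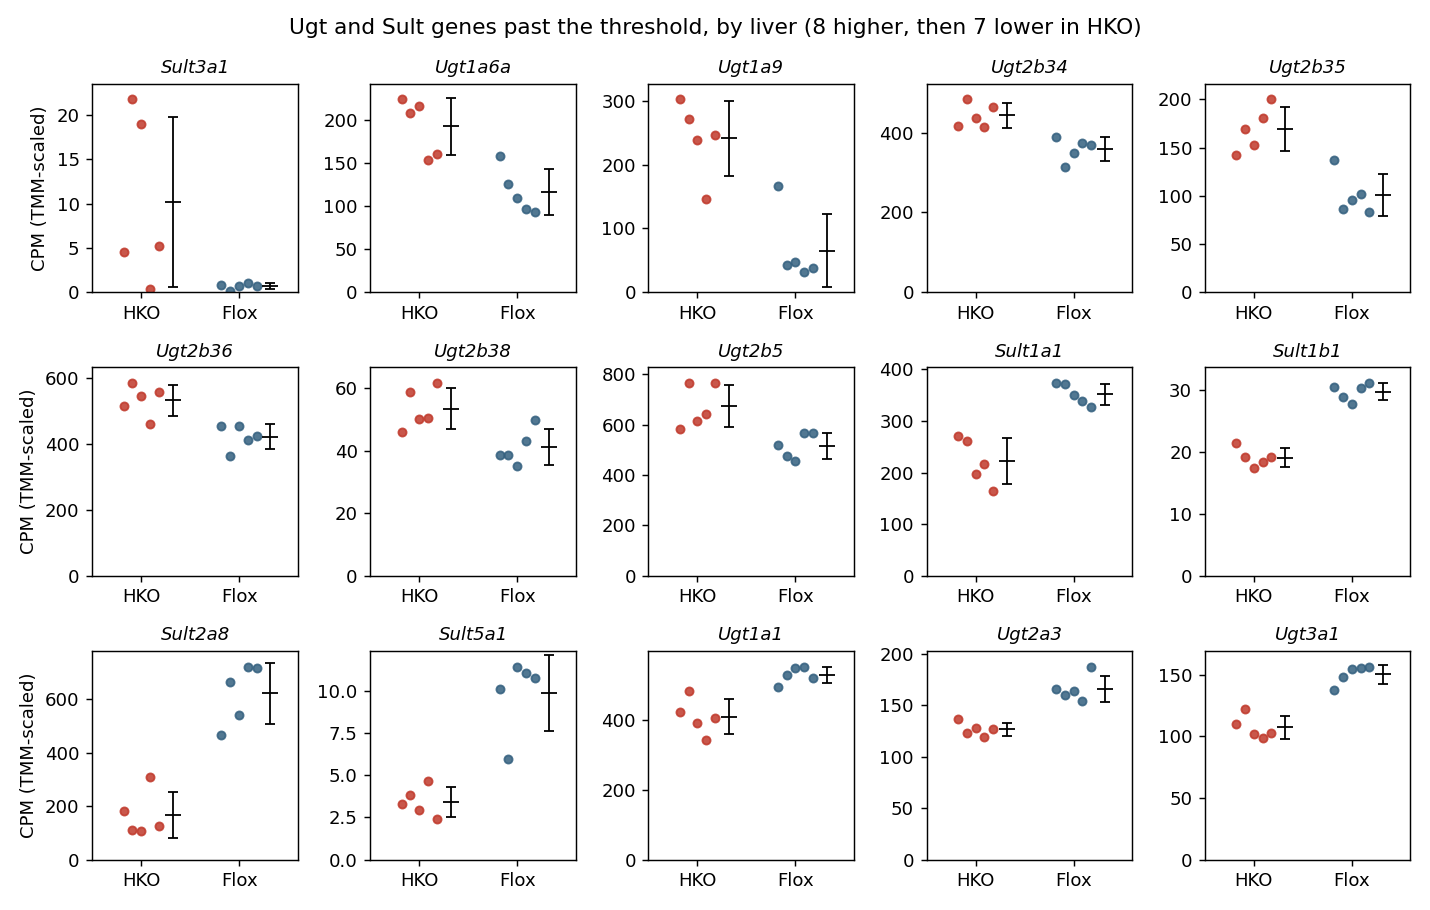
TMM-scaled CPM of the 15 members past the threshold in each liver, 8 higher and then 7 lower in HKO; points are livers, HKO left of Flox, and bars show mean ± SD (n = 5 each). The groups are apart in 11 panels, while in those of Ugt1a9, Ugt1a6a, Ugt2b38 and Sult3a1 they overlap.

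Promoters of 4 Ugt2b genes are shown because 3 of these genes moved together and 2 have nearly the same promoter at very different levels. They are on the minus strand of GRCm38.p6 (RefSeq), printed along the gene, at chr5:87140291-87140590 for Ugt2b5, chr5:87092506-87092805 for Ugt2b36, chr5:87424154-87424453 for Ugt2b38 and chr5:87254739-87255038 for Ugt2b37. Capitals mark the motif matches as above.
Ugt2b5 promoter: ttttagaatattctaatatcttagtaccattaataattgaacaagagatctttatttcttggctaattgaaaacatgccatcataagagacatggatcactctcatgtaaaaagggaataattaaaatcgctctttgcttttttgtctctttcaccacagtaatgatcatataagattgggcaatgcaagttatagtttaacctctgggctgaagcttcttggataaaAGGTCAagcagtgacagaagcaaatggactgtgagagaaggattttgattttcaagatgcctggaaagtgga
Ugt2b36 promoter: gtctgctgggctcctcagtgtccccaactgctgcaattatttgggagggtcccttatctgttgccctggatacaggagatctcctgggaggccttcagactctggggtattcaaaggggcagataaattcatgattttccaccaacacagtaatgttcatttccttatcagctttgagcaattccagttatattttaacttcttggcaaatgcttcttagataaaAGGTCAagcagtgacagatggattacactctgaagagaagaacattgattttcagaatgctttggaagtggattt
Ugt2b38 promoter: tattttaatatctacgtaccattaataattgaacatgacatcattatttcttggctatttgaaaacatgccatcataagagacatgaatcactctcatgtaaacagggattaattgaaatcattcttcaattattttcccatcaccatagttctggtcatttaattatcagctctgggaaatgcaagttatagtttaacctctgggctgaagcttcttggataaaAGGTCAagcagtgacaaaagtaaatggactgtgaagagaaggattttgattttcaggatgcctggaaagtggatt
Ugt2b37 promoter: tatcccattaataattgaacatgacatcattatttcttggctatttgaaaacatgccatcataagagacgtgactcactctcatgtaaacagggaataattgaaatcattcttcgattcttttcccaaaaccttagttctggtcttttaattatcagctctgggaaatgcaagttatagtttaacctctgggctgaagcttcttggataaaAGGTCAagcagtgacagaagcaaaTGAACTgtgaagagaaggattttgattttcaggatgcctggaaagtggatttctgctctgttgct
All 4 held AGGTCA close to the start, 22 bases before it in Ugt2b5, 25 in Ugt2b36 and Ugt2b38, and 39 in Ugt2b37, whose annotated start lies further down the same sequence. Not every Ugt2b gene did. Ugt2b35, with the largest rise, held it 215 bases before the start, and Ugt2b34, also called higher, held none of the searched motifs. Aligned without gaps, the promoters of Ugt2b37 and Ugt2b38 were identical at 271 of 286 bases (94.8%), against 163 of 292 bases (55.8%) for Ugt2b38 and Ugt2b5. Even so, Ugt2b38 stood at 27.0 ± 4.18 FPKM in HKO and 17.7 ± 2.17 FPKM in Flox, and Ugt2b37 at 1.81 ± 0.575 FPKM in HKO and 1.23 ± 0.504 FPKM in Flox.

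Of the 2 Ugt3 genes on chromosome 15, which use sugars other than glucuronate in humans, Ugt3a1 was lower. It had 110, 122, 102, 98.7 and 103 CPM in HKO livers, against 138, 148, 154, 155 and 156 CPM in Flox livers, with no overlap (log2 fold change -0.49, SE 0.07, edgeR adjusted p = 0.00171). It passed without each liver, without HKO 4 and HKO 5 (-0.43) and by limma on log2(FPKM + 0.5) (-0.27, adjusted p = 0.013). Ugt3a2 lay at 370 to 428 CPM in HKO and 388 to 438 CPM in Flox, and its direction turned with the scale: the log2 fold change was -0.08 by edgeR (adjusted p = 0.465) and 0.14 by limma on log2(FPKM + 0.5) (adjusted p = 0.045). Within the pair, Ugt3a1 supplied 23.2 to 24.9% of the FPKM in HKO livers and 27.4 to 30.8% in Flox livers.

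The summed level of sulfotransferases was lower in HKO, and 4 of the 10 tested genes were called lower: Sult2a8, Sult1a1, Sult1b1 and Sult5a1. Sult3a1 was higher, and Sult1c2, Sult1d1, Sult1e1, Sult2a7 and Sult4a1 did not pass. Among those that did not pass, Sult2a7 had a negative log2 fold change and the others positive ones. Summed over all 16, the family had 618, 544, 434, 670 and 403 CPM in HKO livers, against 967, 1165, 1061, 1205 and 1188 CPM in Flox livers. The groups did not overlap, and the ratio of means was 0.478 in CPM and 0.635 in FPKM. Most of the sum was Sult2a8 (mean 167 CPM in HKO and 622 CPM in Flox) and Sult1a1 (222 and 352 CPM). None of the called Sult genes shared a 150-base stretch with another gene.

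Sult2a8, which sulfates bile acids in mouse liver, had the largest called fall. It had 182, 111, 107, 310 and 124 CPM in HKO livers, against 467, 664, 540, 721 and 716 CPM in Flox livers. HKO 4 was the highest of the HKO livers and still lay below every Flox liver. The log2 fold change was -1.90 (SE 0.30), a level 3.72-fold lower (edgeR adjusted p = 0.00415). It was -2.22 without HKO 4 and HKO 5 (adjusted p = 0.00283) and passed without each liver in turn. Its share of the summed Sult FPKM was 19.1 ± 7.71% in HKO and 39.2 ± 5.27% in Flox (SD, n = 5 each).

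Sult1a1, the main phenol sulfotransferase of liver, had 271, 260, 198, 216 and 164 CPM in HKO livers, against 373, 371, 350, 338 and 327 CPM in Flox livers. Sult1b1, which sulfates phenols and thyroid hormones, had 21.5, 19.1, 17.3, 18.3 and 19.2 CPM in HKO livers, against 30.4, 28.8, 27.8, 30.2 and 31.1 CPM in Flox livers. Neither gene's groups overlapped, HKO being lower throughout, and the replicates of Sult1b1 were the more tightly grouped. Log2 fold changes were -0.67 for Sult1a1 (SE 0.12, edgeR adjusted p = 0.0066) and -0.64 for Sult1b1 (SE 0.07, adjusted p = 5.06e-04). Both passed without each liver, without HKO 4 and HKO 5 (-0.53 and -0.62) and by limma on log2(FPKM + 0.5) (-0.46 and -0.39).

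Sult1b1 and Sult1d1 lie on chromosome 5 beside the Ugt2 genes, Sult1b1 at 87513339 to 87538195 and Ugt2b38 ending at 87424203. Sult1d1, which sulfates catecholamines in mice, had 122, 113, 72.6, 104 and 68.2 CPM in HKO livers, against 75.2, 87.7, 120, 91.9 and 94.1 CPM in Flox livers. The groups overlapped throughout (log2 fold change 0.03, SE 0.18, edgeR adjusted p = 0.927). Neighbours in this stretch included genes called higher, genes called lower and genes that did not pass.

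Sult5a1 was low in both groups and lower in HKO. It had 3.28, 3.80, 2.94, 4.66 and 2.39 CPM in HKO livers, against 10.1, 5.95, 11.4, 11.1 and 10.8 CPM in Flox livers. Flox 2 lay below the other Flox livers and above all HKO livers. On the log2 scale Sult5a1 fell by 1.53 (SE 0.22, edgeR adjusted p = 0.00159), with -1.67 to -1.42 on leaving out single livers.

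Sult3a1, an amine sulfotransferase known to be female-predominant in mouse liver, was the only Sult gene called higher. It had 4.56, 21.8, 19.0, 0.354 and 5.14 CPM in HKO livers, against 0.785, 0.125, 0.700, 0.986 and 0.659 CPM in Flox livers. In 4 HKO livers it was several times above every Flox liver, and HKO 4 lay within the Flox range. The log2 fold change was 3.97 (SE 0.94, edgeR adjusted p = 0.0236) and 4.55 without HKO 4 and HKO 5 (adjusted p = 0.00727). The call was lost without HKO 2, HKO 3 or any single Flox liver (adjusted p = 0.0543 to 0.0727), with no filter on low counts (0.0719) and by limma-voom with quantile normalization (0.274). Its neighbour Sult3a2 had 16, 54, 98, 0 and 21 counts in HKO livers, against 0 in every Flox liver. Too few livers had enough counts for it to be tested with all 10. A total of 0 over the Flox group allows up to 3 counts. After scaling to library size, the 189 Sult3a2 counts over the HKO group were at least 54.2-fold above that, and at least 32.9-fold without HKO 3. This floor pools the livers of a group. It was given because Flox held no count, so its direction was fixed beforehand.

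The promoter of Sult3a1 is shown because this gene had the largest called rise and is female-predominant in mice, where growth hormone acts on such genes through STAT5. It lies at chr10:33857472-33857771 on the plus strand of GRCm38.p6 (RefSeq), and its TTCNNNGAA match, in capitals, begins 109 bases before the start.
Sult3a1 promoter: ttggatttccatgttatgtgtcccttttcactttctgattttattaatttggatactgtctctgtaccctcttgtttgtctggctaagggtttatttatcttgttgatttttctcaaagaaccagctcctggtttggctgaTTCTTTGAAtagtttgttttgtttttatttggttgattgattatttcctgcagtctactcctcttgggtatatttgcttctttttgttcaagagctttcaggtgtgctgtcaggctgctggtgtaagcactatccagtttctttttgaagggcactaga
Ugt1a6a and Sult3a1 were the 2 of 29 members with this motif in the window. It was in 6.25% of the 32 member promoters and in 8.3% of all promoters, so members did not hold it more often.

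Other sex-biased liver genes also differed between the groups. Over all genes tested 4.86% were higher and 6.4% lower, with a median log2 fold change of 0.0163. Of 12 male-biased genes 7 were lower and none was higher (median log2 fold change -1.66), among them C8b (-1.97), Serpina1e (-2.86), Selenbp2 (-2.29) and Elovl3 (-2.30; edgeR adjusted p = 0.00288, 0.00613, 0.00675 and 0.00687). Of 7 tested female-biased genes 2 were higher, Cyp2a4 (4.74, adjusted p = 0.00124) and Cux2 (0.94, adjusted p = 0.0207), and none was lower. A1bg (-0.58, edgeR adjusted p = 0.656) and Acot3 (-0.07, adjusted p = 0.859) of that list had negative log2 fold changes and did not pass. Summed, 11 female-biased genes had 520, 871, 783, 177 and 606 CPM in HKO livers, against 294, 91.0, 261, 117 and 75.5 CPM in Flox livers. Cyp2a4 (58.0 to 369 CPM) and Cyp2b9 (80.5 to 416 CPM) held most of this sum in each HKO liver. Cyp2b9 did not pass (1.52, edgeR adjusted p = 0.214). HKO 4, lowest of the HKO livers in this sum, was also lowest in Sult3a1 and highest in Sult2a8. The sum of the 12 male-biased genes overlapped, at 3161 to 6624 CPM in HKO and 4056 to 10163 CPM in Flox. Mup20 alone had 1987 to 5027 CPM in HKO, most of the sum in each HKO liver, and 1446 to 3565 CPM in Flox. Mup20 (0.45, adjusted p = 0.332) and Cyp4a12a (0.19, adjusted p = 0.813) of that list had positive log2 fold changes and did not pass. The labels give no sex, and the part of sex or growth hormone in these values was not tested.

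**Figure D5:**
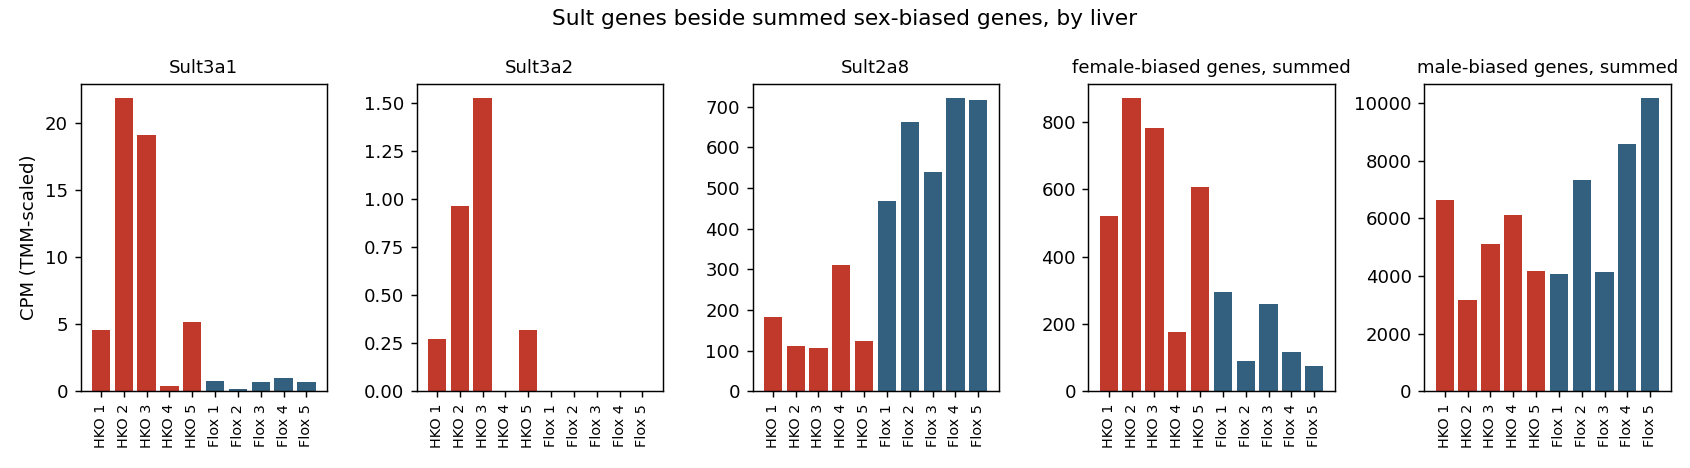
TMM-scaled CPM by liver of Sult3a1, Sult3a2 and Sult2a8 and of the summed female-biased (11 genes) and male-biased (12 genes) lists, HKO livers left of Flox livers. HKO 4 has the lowest bar among the HKO livers for Sult3a1 (0.354 CPM) and for the female-biased sum (177 CPM), and the highest for Sult2a8 (310 CPM).

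The remaining sulfotransferases were low or did not pass. Sult1c2 had 6.82, 6.77, 9.20, 6.34 and 6.42 CPM in HKO livers, against 5.76, 2.49, 5.13, 4.26 and 2.56 CPM in Flox livers, so that the lowest HKO liver was above the highest Flox liver. Its log2 fold change of 0.81 (SE 0.24) nevertheless missed the threshold (edgeR adjusted p = 0.0502) and passed without Flox 1 (adjusted p = 0.0234) or Flox 3 (0.0478), by DESeq2 (0.00905), by limma on log2(FPKM + 0.5) (0.00711) and with length and GC trends removed (0.0374). Sult4a1, a brain sulfotransferase of unclear activity, lay at 3.30 to 8.59 CPM in HKO and 1.19 to 4.79 CPM in Flox (log2 fold change 0.90, adjusted p = 0.185), with its 2 highest values in HKO 5 and HKO 4. Sult2a7 lay at 1.51 to 2.18 CPM in HKO and 1.65 to 3.61 CPM in Flox (-0.45, adjusted p = 0.216). Sult1e1, the estrogen sulfotransferase, stayed at or under 0.457 CPM in all livers (adjusted p = 0.608).

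Sult2b1, the cholesterol sulfotransferase known from skin, was not tested: it had 1.17 and 1.81 CPM in HKO 4 and HKO 5, the livers with epidermal transcripts, and at most 0.143 CPM in the other 8 livers. Sult2a3 had 0, 10, 7, 0 and 0 counts in HKO livers and 0 in every Flox liver, at least 4.87-fold higher on the same floor and at least 2.45-fold without HKO 2. Sult2a1, Sult2a2 and Sult6b1 stayed at or under 0.374 CPM in every liver. Intervals and floors of this kind cover counting error only, not the spread between livers. The floors were given only for members with no count in Flox, which fixes their direction.

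Genes that supply the 2 donors differed in their direction. Of 5 genes for UDP-glucuronate supply, Ugp2, which makes UDP-glucose, and Ugdh, which oxidizes it to UDP-glucuronate, were higher and Pgm1 was lower. Ugp2 had 427, 499.6, 546, 475 and 475 CPM in HKO livers, against 289.7, 208, 280, 277 and 291 CPM in Flox livers. No HKO liver overlapped a Flox liver (log2 fold change 0.85, SE 0.10, edgeR adjusted p = 6.56e-04). Ugdh had 191 to 281 CPM in HKO and 124 to 194 CPM in Flox, where the highest value was Flox 1 (0.67, SE 0.15, adjusted p = 0.0142). Pgm1, which interconverts glucose phosphates, differed little (-0.22, adjusted p = 0.0408), and its means in FPKM were the same (66.3 in HKO and 66.3 in Flox).

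Of 8 genes for PAPS supply and sulfate handling 3 were lower and none was higher. Over all genes tested 4.86% were higher and 6.4% lower. Papss2, which makes PAPS, had 72.5, 72.3, 62.7, 66.9 and 60.3 CPM in HKO livers, against 87.1, 96.5, 135, 93.5 and 105 CPM in Flox livers. The groups did not overlap (log2 fold change -0.63, SE 0.11, edgeR adjusted p = 0.00543). Papss1, which also makes PAPS, had a positive log2 fold change and did not pass (0.25, adjusted p = 0.173). Suox, which oxidizes sulfite to sulfate, had 107 to 127 CPM in HKO and 157 to 191 CPM in Flox (-0.53, adjusted p = 0.00141). Bpnt1, which breaks down the product left by PAPS, was lower by less (-0.29, adjusted p = 0.0265). Summed, the UDP-glucuronate genes held 965 to 1087 CPM in HKO and 649 to 828 CPM in Flox. The list for PAPS and sulfate handling held 458 to 505 CPM in HKO and 567 to 669 CPM in Flox. Most of that was Suox (mean 117 CPM in HKO and 170 CPM in Flox) and Slc26a1 (136 and 160 CPM), which did not pass.

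Among genes that handle the conjugates, the efflux pump Abcc4 rose and the uptake carrier Slco1a1 fell. Abcc4 had 17.1, 30.4, 27.8, 11.6 and 27.4 CPM in HKO livers, against 4.10, 2.64, 2.46, 3.59 and 2.76 CPM in Flox livers (log2 fold change 2.88, SE 0.27, edgeR adjusted p = 4.4e-04). Slco1a1, known to be male-predominant, had 13.4, 10.8, 6.24, 45.7 and 2.97 CPM in HKO livers, against 74.1, 295, 97.5, 308 and 323 CPM in Flox livers (-3.79, SE 0.77, adjusted p = 0.0126). Neither gene's groups overlapped. Slco1b2 was also lower (-0.32, adjusted p = 0.0332), and the other 5 of 8 transporters, the canalicular pump Abcc2 included, did not pass. Gusb, the lysosomal glucuronidase that removes glucuronic acid, was higher (0.74, adjusted p = 0.00774), and 2 other tested hydrolases did not pass.

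Of 13 regulators of these genes 1 was called, where 11.3% of all genes tested passed. It was Rxra, the shared partner of PXR, CAR and PPARα, and it was lower (log2 fold change -0.26, edgeR adjusted p = 0.0494). In FPKM its means were close (63.3 in HKO and 64.8 in Flox) and its groups overlapped. Nr1i3 (CAR) had 179, 268, 191, 292 and 169 CPM in HKO livers, against 221, 408, 327, 513 and 380 CPM in Flox livers, and did not pass (-0.75, adjusted p = 0.0599). Of 13 genes that read out such receptors, Nqo1, an NRF2 target, was higher (1.63, SE 0.26, adjusted p = 0.00323), and the PPARα targets Cyp4a10, Cyp4a14 and Acot1 were lower (-0.80, -0.90 and -1.02; adjusted p = 0.00963, 0.0236 and 0.0355). Nqo1 lay at 9.99 to 23.7 CPM in HKO and 3.86 to 8.08 CPM in Flox. The other 3 NRF2 targets of the list did not pass: Gclc (0.54, adjusted p = 0.095), Srxn1 (0.36, adjusted p = 0.559) and Txnrd1 (0.09, adjusted p = 0.615). The CAR and PXR readouts Cyp2b10 and Cyp3a11 and the aryl hydrocarbon receptor readouts Cyp1a1 and Cyp1a2 did not pass. Over 8 lists together, the male-biased and female-biased lists included, 7 of 69 tested genes were higher and 17 lower. Of these, 2 of the higher and 7 of the lower were sex-biased genes. Over all genes tested 4.86% were higher and 6.4% lower. Without HKO 4 and HKO 5 the lists gave 8 higher and 8 lower, where 2.45% and 2.91% of all genes tested were.

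Without HKO 4 and HKO 5, the members tested with all livers gave 4 higher and 6 lower, where 5.36% of all 18514 genes tested passed (2.45% higher and 2.91% lower). Of the 8 higher with all livers, these 4 were called again (Sult3a1, Ugt1a6a, Ugt2b35 and Ugt2b36), and of the 7 lower, 6 were, with Ugt1a1 lost. Sult3a2, at 0 in every Flox liver, entered this test through its HKO counts alone and is not counted. The members with no overlap in CPM and an edgeR call in every single-liver omission were Sult2a8, Sult1a1, Sult1b1, Sult5a1, Ugt1a1, Ugt2a3, Ugt3a1 and Ugt2b35. In FPKM the groups of Ugt1a1, Ugt2a3 and Ugt3a1 overlapped. Ugt1a1 and Ugt2a3 did not pass by limma on log2(FPKM + 0.5), and Ugt1a1 came near the threshold in 1 omission (edgeR adjusted p = 0.0489).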

How the data were processed

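Poly(A) RNA of 10 mouse livers was read as pairs of 150 bases, per the labels' protocols. The authors deposited estimated counts, all of them whole numbers, and FPKM (fragments per gene, corrected for its length and for library size) over 31218 genes, per the file headers. StringTie 2.1.6, HISAT2 2.2.1, cutadapt 1.9, edgeR and DESeq2 are named in the submitters' processing notes. The sources used here name no genome build, strand setting or rule for shared reads.

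Estimated counts were tested with edgeR 4.0.16 in R 4.3.3 (filterByExpr, TMM factors, robust quasi-likelihood test, HKO against Flox, two-sided, Benjamini-Hochberg adjustment over 18065 genes, threshold 0.05). Alternatives were DESeq2 1.42.0, limma 3.58.1 on log2(FPKM + 0.5), other scalings and filters, and leaving out livers. CPM are counts scaled with TMM factors. On simulated data for this comparison, over 18065 genes, 50% of genes raised 2-fold and 85.4% of those raised 4-fold were called, 53.5% and 83% of those lowered, and 6 of 17437 unchanged genes.

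Members and gene lists were chosen with earlier results of these data known. Named were all members past the threshold or with a mean of at least 1 FPKM in either group, the rest by range, and from each pathway list the called genes, up to 4. Genes named outside this rule (Srxn1, Gclc, Cidea, Tiparp, Nr1i2, Nr1i3, Xist and genes given as not passing) were chosen after their values were seen. All 35 members were matched by gene identifier to the mouse annotation on GRCm38, read for shared stretches of 150 bases and junctions, and 29 to RefSeq promoters.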

Additional observations from a re-analysis of the deposited data

Results flagged for a closer look

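In groups of 5 livers, a highest or lowest liver was marked where its gap to the next took up most of the group's range. Among 52 such groups (HKO and Flox for each of the 26 members at or above 1 FPKM) 8 were marked, where chance marks about 1 in 20.

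In HKO 3, Ugt1a2 stood at 68.7 CPM, Ugt1a10 at 21.8 CPM and Sult1c2 at 9.20 CPM, each above the other HKO livers (at most 0.431, 5.66 and 6.82 CPM). In Flox 1, Ugt1a9 stood at 166 CPM and Ugt1a5 at 119 CPM, above the other Flox livers (at most 46.7 and 55.1 CPM). In Flox 4, Ugt1a10 stood at 12.9 CPM and Ugt1a2 at 2.12 CPM, above the other Flox livers (at most 3.16 and 0.323 CPM). In Flox 2, Sult5a1 stood at 5.95 CPM, below the other Flox livers (at least 10.1 CPM). Of the 8, 6 are Ugt1 genes, whose reads are partly shared.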

How the results depend on the processing

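Which members were called higher depended on the fit more than which were called lower. With all livers 8 members were higher and 7 lower. The higher count was 13 by limma on log2(FPKM + 0.5) or log2(FPKM + 0.1), 5 without HKO 4 and HKO 5 (with Sult3a2, which entered that test through HKO counts alone), and 2 to 8 on leaving out single livers, where the lower count was 7 each time. Over all genes 878 were higher and 1156 lower (43.2% of calls higher). DESeq2 gave 1629 higher, limma 3054 higher and 409 lower with 0.5 added and 3056 and 410 with 0.1 (88.2% higher), and length and GC trends removed 628 and 1413 (30.8% higher, with 8 and 7 members as before). Without HKO 4 and HKO 5 there were 454 and 539, and without single livers 498 to 1058 higher and 691 to 1162 lower. The 8 lists, the sex-biased ones included, held 7 higher and 17 lower genes with all livers. Their higher count was 11 by DESeq2, 16 by limma on either FPKM scale and 7 to 12 without single livers. The lower count was 8 without HKO 4 and HKO 5 and 9 to 16 without single livers.

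Log2 ratios of summed FPKM were -0.65 (Sult), 0.50 (Ugt1), 0.53 (Ugt2) and 0.03 (Ugt3). In CPM with TMM factors they were -1.07, 0.31, 0.31 and -0.18. Ugt3a2 turned to 0.19 by limma-voom with quantile normalization and 0.14 by limma with either amount added. On leaving out single livers Sult1d1 ran from -0.0582 to 0.14, Ugt1a10 from -0.46 to 1.53 and Ugt1a2 from -1.40 to 6.43. Sult1d1 was below 0 without HKO 1, HKO 2 or Flox 1 and the others without HKO 3, and none was called. The cause of these turns was not tested, apart from the scale. No paired analysis was possible because the groups share no replicate numbers in the labels. Depth limits Sult3a2, Sult2a3, Sult2b1 and other genes under 1 CPM, where a difference may not be detectable.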
